A study of Mus musculus with 6 samples.

Results

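Antisense RNAs, transcripts made from the strand opposite a protein-coding gene, were followed in mouse hearts with a cardiac deletion of the splicing factor gene Srsf4 and in controls. The members were the 115 rows of the deposited table whose biotype reads antisense, of 12824 rows in all, and each was set beside the protein-coding rows that overlapped it by at least 1 base on the other strand. This gave 95 pairs with 95 different coding genes. Of the 115 antisense rows, 86 had such a partner, 9 of them had 2, and 29 had none in the table. The rule used position and biotype only, not measured values. RNA came from whole hearts of 6 adult C57BL/6 mice aged 2 months, 1 library per heart. The 3 knockout (KO) mice had the genotype SRSF4flox/flox;NKx2.5-Cre, in which both Srsf4 alleles carry loxP sites and Cre is expressed from Nkx2-5, a gene active in heart muscle and its precursors. The 3 control mice were SRSF4flox/flox without Cre, so that Cre itself and the deletion differ together between the groups.

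SRSF4 belongs to the SR proteins, which bind RNA through recognition motifs and take part in choosing splice sites. An antisense RNA can share a start region with its neighbour (divergent transcription), run into its end (convergent transcription) or lie inside it. Some act on their neighbour in cis, as the imprinted Airn does on Igf2r in mouse, some carry microRNAs, and many have no known role. Mhrt, or Myheart, is a heart-enriched transcript of the cardiac myosin locus that in mouse binds the chromatin remodeller BRG1 and opposes pathological hypertrophy.

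The libraries held 59810975 to 74941323 estimated counts, and a count of 0 leaves room for up to 3 counts, or 0.0400 to 0.0502 CPM (counts scaled to library size with TMM factors), for counting error only. Srsf4 was measured at 10.8, 10.1 and 8.39 CPM in KO hearts 1 to 3 and at 22.1, 23.5 and 23.7 CPM in controls 1 to 3, so every KO heart lay below every control, as its label says (log2 difference -1.24, SE 0.11, edgeR adjusted p = 0.000881). The 10 cardiomyocyte markers were all present, at a summed 66876 to 73779 CPM in KO and 70648 to 72293 CPM in control hearts, while T and B cell, adipocyte and lung markers were not among the rows. Library codes in the labels began with 1 prefix for all KO hearts and another for all controls, so any library batch and genotype cannot be told apart. In whole hearts, fewer cells of a type and less RNA per cell cannot be told apart either. The summed smooth muscle and pericyte markers were at 438 to 548 CPM in KO and 604 to 700 CPM in control hearts, and the conduction markers at 11.96 to 16.5 against 21.2 to 28.4 CPM. Summed fibroblast markers ran from 305 to 658 CPM in KO and from 522 to 565 CPM in control hearts, and atrial markers, 2 of 4 present, from 40.8 to 238 CPM and from 162 to 224 CPM. Neutrophil markers, 3 of 4 present, were at 2.29 to 2.85 CPM in KO and 0.944 to 1.81 CPM in control hearts. The part of these cell types in the antisense results was not tested.

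The antisense genes were weakly expressed beside their partners. Their mean levels ran from 0 to 81.0 CPM with a median of 1.06 and quartiles of 0.365 and 3.42 CPM; 57 of 115 were under 1 CPM and 9 at 10 CPM or more. Their coding partners had a median of 22.0 CPM, from 0.393 to 864 CPM. Per kilobase of exon in GENCODE M21, the median ratio of the antisense level to the sense level was 0.190 over 94 pairs with exon models. In 36 of these pairs the antisense level was below 0.1 of the sense level, and in 13 it lay above it.

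**Figure D1:**
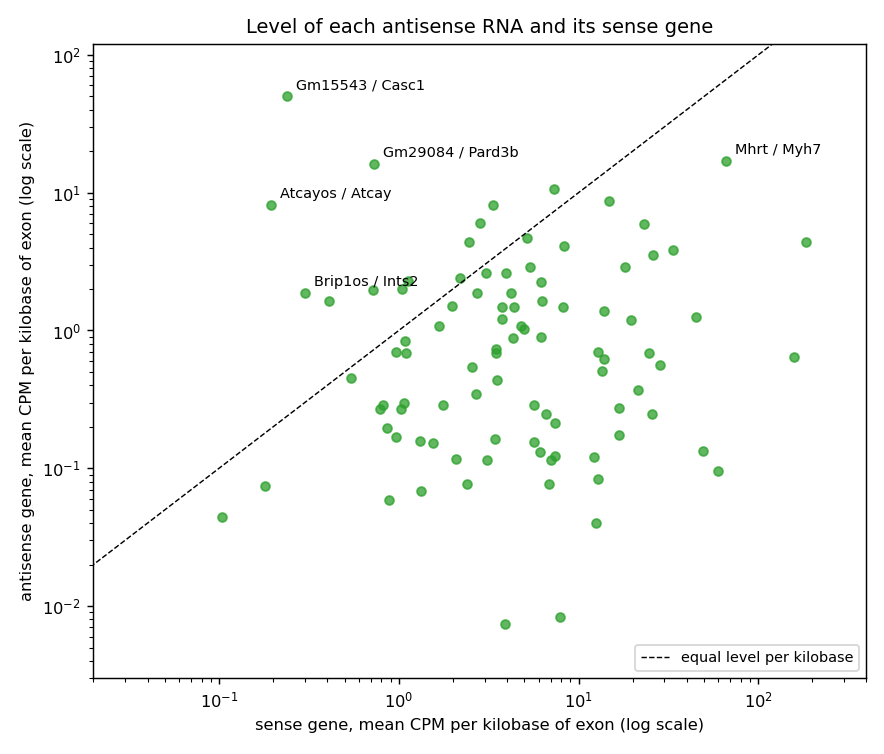
Mean CPM per kilobase of exon over the 6 hearts for the antisense gene (vertical) and its sense gene (horizontal), both on log scales, each point a pair; a pair whose antisense gene was at 0 is not drawn. Most points lie below the dashed line of equal level, and Gm15543, Gm29084 and Atcayos lie far above it.

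By layout, 37 antisense genes lay inside the sense gene, 33 pairs overlapped start to start, 21 end to end, and in 4 the sense gene lay inside the antisense gene. Of the 33 start-to-start pairs, 25 had starts within 1000 bases of each other. The use of strand in the authors' counting is not given in the sources used here. Where exons overlap, reads of an antisense gene and of its partner can therefore not be told apart unless the counting was stranded. Exons shared bases in 78 of the 94 pairs, with a median of 385 shared bases, and 46 pairs shared coding bases; 16 pairs shared no exon base. Of the 29 antisense genes with no partner in the table, 16 had the start of a coding gene on the other strand within 1000 bases. By the genes of GENCODE M21, 13 of the 29 overlapped a coding gene on the other strand.

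Few antisense genes passed the test between genotypes. The filter on low counts kept 105 of the 115, and 6 of these passed an adjusted p of 0.05 in edgeR's quasi-likelihood test, 5.71% against 6.03% of all 12686 tested genes. Among the 6, 2 were higher in KO, Gm15743 and Gm16344 (3.29% of all tested genes were higher), and 4 were lower, H3f3aos, Frmd8os, Foxo6os and Uckl1os (2.74% of all tested genes were lower). All 6 had mean levels under 5 CPM, where 87 antisense genes were tested; over all tested genes under 5 CPM, 7.41% passed. The share of antisense genes was thus near the background of the table. Without KO heart 1, 27 antisense genes passed (5 higher, 22 lower), when 22.8% of all tested genes did. Without control hearts 1, 2 and 3 the number was 2, 2 and 3, when 2.27%, 2.36% and 2.5% of all tested genes passed.

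The direction of the antisense genes was less even. The log2 difference was negative for 66 and positive for 39, with a median of -0.14 against -0.0032 for all tested genes. KO and control hearts did not overlap for 30 antisense genes (28.6%, against 27.2% of all tested genes), and 24 of these 30 were lower in KO, whereas over all tested genes 1715 of 3453 were lower. Scaling by total counts moved the medians to -0.27 for antisense genes and -0.14 for all. The lower level was not shared by all KO hearts. The median antisense log2 value relative to the control mean was 0.04 in KO heart 1, -0.22 in KO heart 2 and -0.20 in KO heart 3, while the median of all tested genes was between -0.01 and 0.00 in each. Of the 105, 31 were below every control in KO heart 1, 54 in KO heart 2 and 56 in KO heart 3, while 37, 17 and 20 were above every control. KO heart 1 thus had more antisense genes above than below the controls. Long intergenic RNAs of the table, another non-coding class, had medians of -0.07, -0.33 and -0.28 in the same hearts. The coding partners had medians of -0.05, 0.03 and 0.02 there. Of the long intergenic RNAs, 22 of 192 passed the test (11.5%, against 6.03% of all tested genes). Median fitted log2 differences were -0.25 for long intergenic RNAs, -0.15 for processed transcripts and 0.15 for pseudogenes.

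H3f3aos, divergent from the histone H3.3 gene H3f3a (chr1:180813776-180816859, plus strand, GRCm38), was measured at 0.0716, 0.0465 and 0.0445 CPM in KO hearts 1 to 3 and at 0.709, 0.849 and 0.717 CPM in controls 1 to 3. Every KO heart lay far below every control and close to the detection limit. The summed counts were 11 against 154, a 13.8-fold lower level (95% counting interval 7.53 to 28.3, counting error only), and the fitted log2 difference was -3.75 (SE 0.30, edgeR adjusted p = 0.000495). H3f3a, which encodes a replacement histone, was at 169, 134 and 151 CPM in KO and 193, 182 and 208 CPM in control hearts, also without overlap but much closer (log2 difference -0.36, adjusted p = 0.104, and 0.00991 without KO heart 1). The genes overlap by 168 bases at their starts, 160 of them exonic. The antisense to sense log2 ratio (pseudocount 0.1 CPM) differed by -2.11, with an exact permutation p of 0.1, the smallest that 3 against 3 hearts allow. The KO mean of H3f3aos, 0.0542 CPM, is below the pseudocount, so the size of this difference depends on the pseudocount.

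Frmd8os (chr19:5845623-5851388, plus strand) gave the lowest values among those past the test. Its counts were 0, 0 and 1 in KO hearts 1 to 3 and 18, 10 and 11 in controls, or 0, 0 and 0.0148 CPM against 0.232, 0.157 and 0.175 CPM. The summed ratio was 38.6-fold lower with a counting interval of 6.53 to 1562 (fitted log2 difference -4.82, SE 0.72, edgeR adjusted p = 0.00975). Without KO heart 3, which held the only count, the fitted value was -6.70, a size that depends on the prior count. Its convergent partner Frmd8, a FERM-domain protein that binds the inactive rhomboid proteins, was at 5.67, 7.22 and 6.10 CPM in KO and 7.76, 6.37 and 6.95 CPM in control hearts. Those groups overlapped (log2 difference -0.15, adjusted p = 0.557). The genes share 388 exon bases. H3f3aos and Frmd8os passed the test whichever heart was left out. Both passed the low-count filter through the controls only. A gene as low as this in KO and control hearts alike would not have been tested. Without the filter the edgeR adjusted p was 0.000509 for H3f3aos and 0.0105 for Frmd8os.

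Uckl1os (chr2:181578480-181585170, plus strand) lies opposite 2 genes, Uckl1, a uridine-cytidine kinase relative, and Znf512b, a zinc finger protein. It was measured at 1.504, 1.645 and 0.698 CPM in KO hearts and 3.70, 4.18 and 4.64 CPM in controls. All KO hearts lay below all controls, KO heart 3 the farthest (log2 difference -1.701, SE 0.29, edgeR adjusted p = 0.0171, from 0.057 to 0.082 when any 1 control was left out). Uckl1 was at 20.4 ± 1.63 CPM (SD, n = 3) in KO and 23.6 ± 0.675 CPM in control hearts (log2 difference -0.21, adjusted p = 0.204). Znf512b was at 9.91 ± 0.191 and 12.9 ± 1.10 CPM (log2 difference -0.38, adjusted p = 0.0545, and 0.0196 without KO heart 1). Neither partner passed the test with all hearts.

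Foxo6os (chr4:120291350-120303892, plus strand) overlapped no coding row. It was measured at 0.215, 0.357 and 1.28 CPM in KO hearts and at 3.57, 4.36 and 4.61 CPM in controls. KO heart 3 was the closest to the controls (log2 difference -2.76, SE 0.54, edgeR adjusted p = 0.0276, from 0.077 to 0.104 without KO heart 2 or any 1 control). Without KO heart 3 the log2 difference was -3.87. The nearest start on the other strand, 4001 bases away, belongs to Foxo6, a forkhead transcription factor, which was at 1.29, 0.543 and 0.445 CPM in KO and 2.30, 2.09 and 2.23 CPM in control hearts. Both groups of Foxo6 were apart as well, with KO heart 1 the closest, and it did not pass the test (log2 difference -1.53, SE 0.37, adjusted p = 0.0564).

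Gm15743 and Bdh1 were the pair in which both genes passed, of 88 pairs with both genes tested. Bdh1 encodes the mitochondrial enzyme that interconverts the ketone bodies beta-hydroxybutyrate and acetoacetate. Gm15743 (chr16:31427876-31429776, minus strand) lies inside Bdh1 (chr16:31422280-31458901, plus strand) and spans internal starts of it. Promoter windows of RefSeq (GRCm38.p6, from 250 bases before to 50 after a start, each on its gene's strand, no part in capitals) show the start of Gm15743, the internal start of Bdh1 and the distal start of Bdh1.
Gm15743, chr16:31429727-31430026, minus strand: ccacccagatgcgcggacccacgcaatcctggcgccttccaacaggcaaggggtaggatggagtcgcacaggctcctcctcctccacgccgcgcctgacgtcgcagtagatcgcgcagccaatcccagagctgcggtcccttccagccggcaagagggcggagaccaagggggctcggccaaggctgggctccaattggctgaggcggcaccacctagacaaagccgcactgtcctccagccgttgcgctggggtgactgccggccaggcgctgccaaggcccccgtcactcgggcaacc
Bdh1 internal start, chr16:31428503-31428802, plus strand: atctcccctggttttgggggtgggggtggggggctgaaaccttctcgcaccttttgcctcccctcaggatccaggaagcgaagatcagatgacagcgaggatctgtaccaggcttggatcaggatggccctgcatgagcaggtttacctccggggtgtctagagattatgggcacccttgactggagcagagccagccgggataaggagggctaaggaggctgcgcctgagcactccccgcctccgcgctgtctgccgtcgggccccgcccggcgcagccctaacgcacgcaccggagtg
Bdh1 distal start, chr16:31422047-31422346, plus strand: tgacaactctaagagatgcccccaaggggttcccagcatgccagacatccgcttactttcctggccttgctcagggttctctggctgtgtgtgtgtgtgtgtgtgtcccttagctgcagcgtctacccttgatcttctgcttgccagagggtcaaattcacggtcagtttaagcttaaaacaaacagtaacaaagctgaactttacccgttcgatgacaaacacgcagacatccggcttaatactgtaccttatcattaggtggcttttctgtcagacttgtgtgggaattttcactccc
The Gm15743 window had 68.3% G and C and 24 CpG dinucleotides, the internal Bdh1 window 63.7% and 17, and the distal window 48.3% and 7. Over all 32851 RefSeq promoter windows the medians were 52.7% and 7. These are descriptions of sequence, not of promoter use.

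Gm15743 was measured at 2.51, 1.78 and 1.57 CPM in KO hearts 1 to 3 and 0.658, 0.598 and 0.733 CPM in controls. Bdh1 was measured at 164, 154 and 135 CPM in KO hearts and at 39.9, 35.7 and 46.7 CPM in controls. Both genes were higher in every KO heart than in any control, and both had the same order over the KO hearts. Gm15743 rose by a log2 difference of 1.56 (SE 0.23, edgeR adjusted p = 0.00853, and 0.055 and 0.057 without control 1 or 2), and Bdh1 by 1.89 (SE 0.13, adjusted p = 0.000213). They share 533 exon bases, 28.0% of the Gm15743 exons and all outside the coding sequence. Per kilobase Gm15743 was at 0.689 CPM and Bdh1 at 24.7 CPM, and the antisense to sense log2 ratio differed by -0.48 (exact permutation p = 0.1). Whether the reads of Gm15743 came from its own strand was not tested.

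Gm16344 (chr18:32021740-32026610, plus strand) had no partner in the table. It was measured at 6.15, 4.39 and 5.20 CPM in KO hearts and 2.72, 2.83 and 3.00 CPM in controls. Every KO heart was above every control (log2 difference 0.88, SE 0.15, edgeR adjusted p = 0.0147, from 0.052 to 0.091 without KO heart 3 or any 1 control). Within 2 megabases, 4 of 32 tested neighbours passed the test around H3f3aos (12.5%), 8 of 136 around Frmd8os (5.88%) and 3 of 29 around Foxo6os (10.3%). Around Uckl1os it was 1 of 41 (2.44%), around Gm15743 3 of 40 (7.5%) and around Gm16344 1 of 20 (5.0%). Over all tested genes 6.03% passed.

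**Figure D2:**
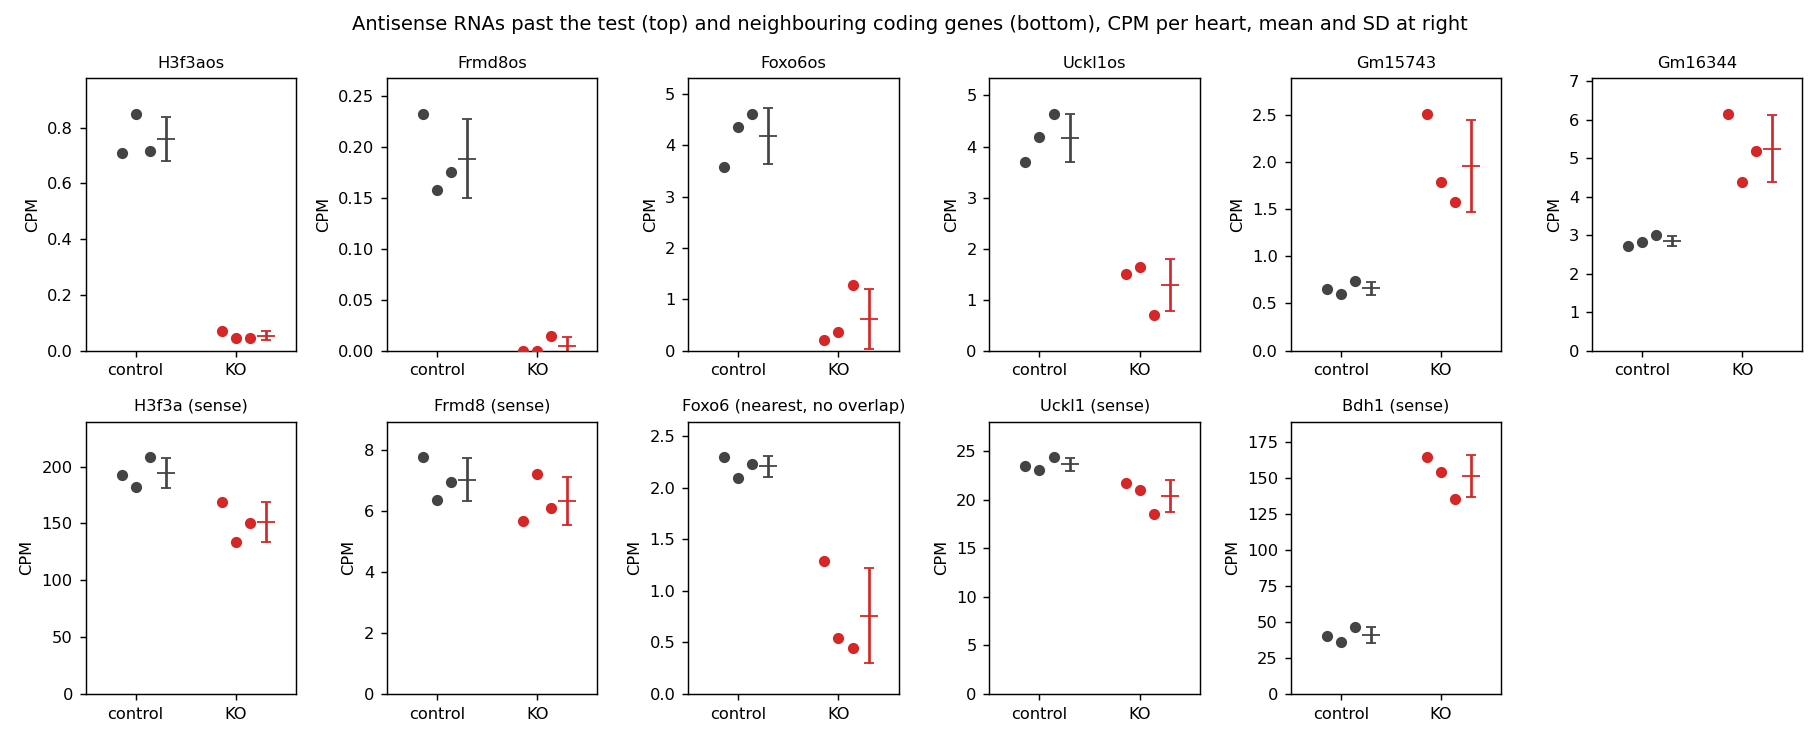
CPM in each heart for the antisense genes past the test (top) and the coding gene beside each (bottom), controls in grey and KO in red, with the mean and SD at the right of each group; axes start at 0. Groups are apart in every top panel, while H3f3a and Uckl1 differ far less and Frmd8 overlaps. Bdh1 rises with Gm15743.

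Of the 95 coding partners, 10 passed (10.5%, against 6.03% of all tested genes), 7 higher and 3 lower in KO. Without KO heart 1, 33 passed, when 22.8% of all tested genes did. Without KO heart 2 or 3 it was 6 in each case, beside 3.87% and 3.36% of all, and without control 1, 2 or 3 it was 4, 4 and 5, beside 2.27%, 2.36% and 2.5%. Their antisense genes did not pass in 9 of these cases. Over the 88 pairs with both genes tested, the log2 differences had the same sign in 56. Pearson's r between them was 0.16 and Spearman's rho 0.34. Without Myh7, Baiap2l1 and Bdh1 Pearson's r was 0.23 over 85 pairs. Among 71 pairs sharing exon bases, 44 had the same sign, with Pearson's r 0.16 and rho 0.31; among 16 pairs sharing none, 11 did, with 0.28 and 0.36. The points share libraries and a locus, and some may share reads, so these values describe the pairs.

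**Figure D3:**
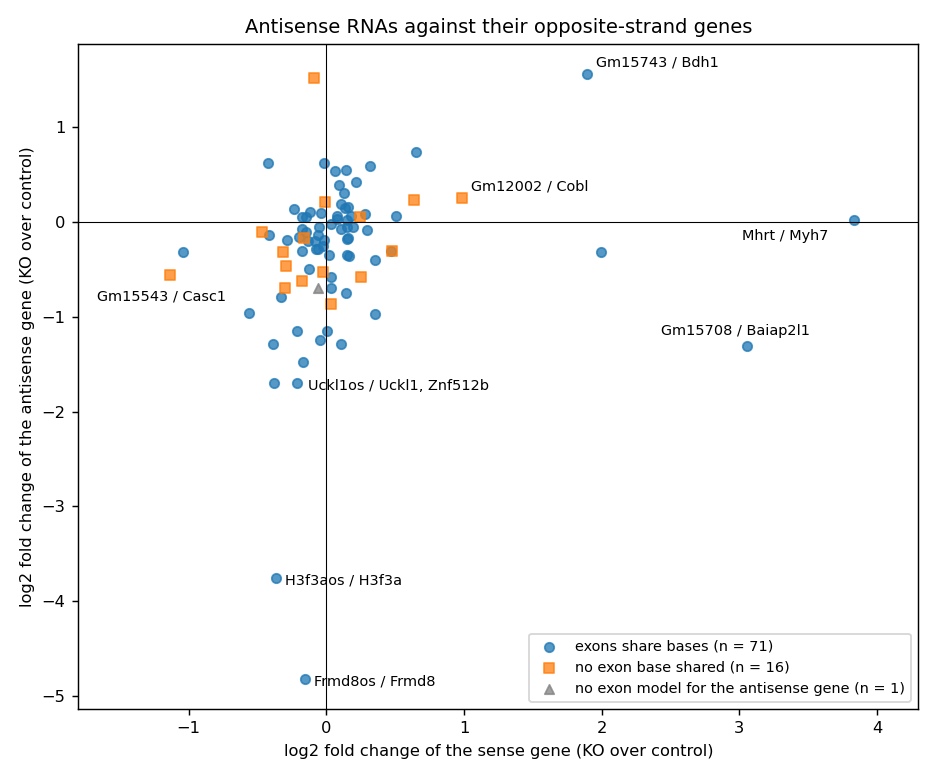
Log2 difference of each antisense gene (vertical) against that of its sense gene (horizontal) for the 88 pairs with both tested, by whether their exons share bases. Mhrt and Gm15708 lie far to the right with antisense values of 0.02 and -1.30, while H3f3aos and Frmd8os lie far below near a sense value of 0.

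Mhrt, named D830015G02Rik in the table (chr14:54968678-54974349, plus strand), runs into the end of Myh7 (chr14:54970688-54994634, minus strand), the slow or beta myosin heavy chain that dominates in the fetal mouse ventricle. The overlap is 3662 bases, with 484 exon bases, 463 of them coding in Myh7. The stretch of the Mhrt transcript that holds its longest unbroken run of complement is shown from GENCODE M21, bases 357 to 560 of 828 (chr14:54973878-54974081), the 189 capitals marking bases complementary to a Myh7 coding exon.
Mhrt: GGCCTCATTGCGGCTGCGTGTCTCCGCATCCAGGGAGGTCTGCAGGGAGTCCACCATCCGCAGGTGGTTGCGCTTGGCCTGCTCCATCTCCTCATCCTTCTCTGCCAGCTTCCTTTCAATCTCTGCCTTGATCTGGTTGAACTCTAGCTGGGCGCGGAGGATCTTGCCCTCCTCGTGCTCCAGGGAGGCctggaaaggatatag
For Mhrt and Myh7 the RefSeq promoter window of the most upstream start is shown. Capitals mark the single match to CATTCC, the MCAT element bound by TEAD factors, or its reverse complement.
Mhrt promoter, chr14:54968537-54968836, plus strand: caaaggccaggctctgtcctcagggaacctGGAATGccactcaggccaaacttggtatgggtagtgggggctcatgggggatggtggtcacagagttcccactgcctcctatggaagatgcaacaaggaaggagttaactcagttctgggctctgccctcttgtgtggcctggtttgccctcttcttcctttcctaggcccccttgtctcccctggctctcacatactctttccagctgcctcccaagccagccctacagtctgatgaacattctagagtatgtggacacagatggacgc
Myh7 promoter, chr14:54994577-54994876, minus strand: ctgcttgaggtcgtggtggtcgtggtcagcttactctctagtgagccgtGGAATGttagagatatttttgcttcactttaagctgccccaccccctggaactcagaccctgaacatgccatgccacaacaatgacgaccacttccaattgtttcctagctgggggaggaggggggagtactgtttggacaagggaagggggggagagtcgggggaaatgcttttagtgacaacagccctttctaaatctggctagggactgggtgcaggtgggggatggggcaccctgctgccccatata
The match lies at -220 in Mhrt and -201 in Myh7 relative to that most upstream start, and 14.7% of all windows hold one on either strand. A TATA box (TATAAA), held by 13.6% of windows, a GATA site (AGATAA), held by 11.2%, and an E-box (CACGTG), held by 7.15%, were also searched on both strands and none was in these windows.

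Myh7 was measured at 756, 1237 and 1212 CPM in KO hearts 1 to 3 and 90.8, 77.5 and 56.1 CPM in controls. Mhrt was measured at 27.5, 19.6 and 15.3 CPM in KO hearts and 20.1, 18.3 and 23.0 CPM in controls. Myh7 was far higher in every KO heart (log2 difference 3.84, SE 0.26, edgeR adjusted p = 0.000249), whereas the Mhrt groups overlapped, with the highest and the lowest heart both KO (log2 difference 0.02, SE 0.21, adjusted p = 0.973; the sign turned under several settings). The mean antisense to sense log2 ratio was -5.68 in KO and -1.84 in control hearts (exact permutation p = 0.1).

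Gm15708 lies opposite Baiap2l1, an adaptor between membrane curvature and actin, with 34 shared exon bases, all coding; these are the capitals in a stretch of its transcript from GENCODE M21 (chr5:144277683-144277722, plus strand).
Gm15708: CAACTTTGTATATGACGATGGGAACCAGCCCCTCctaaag
Baiap2l1 was measured at 80.5, 71.6 and 78.9 CPM in KO hearts and 9.86, 9.74 and 8.13 CPM in controls (log2 difference 3.06, edgeR adjusted p = 1.2e-05). Gm15708 was at 0.143, 0.0621 and 0.0742 CPM in KO and 0.258, 0.220 and 0.223 CPM in control hearts. Baiap2l1 was higher in every KO heart and Gm15708 lower in every KO heart, the latter without passing the test (log2 difference -1.30, SE 0.38, adjusted p = 0.0983, and 0.0202 without KO heart 1). Their log2 ratio differed by -3.86 (exact permutation p = 0.1). The KO mean of Gm15708, 0.0932 CPM, is below the pseudocount of 0.1 CPM, so this size depends on the pseudocount as well.

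Gt(ROSA)26Sor is the antisense-annotated locus widely used to insert transgenes in mice, and Thumpd3 opposite it encodes a tRNA methyltransferase. They share 145 coding exon bases, capitals in this stretch (chr6:113067659-113067818, minus strand).
Gt(ROSA)26Sor: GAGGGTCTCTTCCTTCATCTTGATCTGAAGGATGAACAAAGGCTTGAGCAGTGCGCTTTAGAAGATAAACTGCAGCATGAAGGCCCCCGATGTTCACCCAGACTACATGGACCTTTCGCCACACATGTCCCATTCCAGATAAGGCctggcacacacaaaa
Thumpd3 was measured at 15.01, 14.8 and 15.5 CPM in KO hearts and 10.9, 11.0 and 10.7 CPM in controls (log2 difference 0.47, edgeR adjusted p = 0.0116). Gt(ROSA)26Sor was at 3.09, 1.52 and 2.23 CPM in KO and 2.80, 2.56 and 3.11 CPM in control hearts. Thumpd3 was higher in every KO heart, with an adjusted p of 0.0537 to 0.0875 without KO heart 3 or any 1 control, and the groups of Gt(ROSA)26Sor overlapped (log2 difference -0.31, adjusted p = 0.541).

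Cobl, the actin nucleator cordon-bleu, was at 8.21, 8.61 and 6.43 CPM in KO and 3.83, 3.60 and 4.32 CPM in control hearts (log2 difference 0.98, edgeR adjusted p = 0.00831). Gm12002 inside it, with no shared exon base, was at 4.41, 5.60 and 7.62 CPM in KO and 5.20, 4.69 and 4.88 CPM in control hearts (log2 difference 0.26, adjusted p = 0.508). Cobl was higher in every KO heart, with an adjusted p of 0.0555 and 0.0551 without control 1 or 2, while the Gm12002 groups overlapped.

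Popdc3, a cAMP-binding Popeye membrane protein, rose (17.8 ± 1.07 against 13.0 ± 0.635 CPM, log2 difference 0.45, edgeR adjusted p = 0.0235). Map4k2, a kinase upstream of MAP kinase cascades, fell (15.4 ± 0.461 against 25.97 ± 1.82 CPM, log2 difference -0.75, adjusted p = 0.00226). Their antisense genes Gm15934 and Gm14966 did not pass the filter, at 0.113 ± 0.0264 against 0.111 ± 0.0316 CPM and 0.0956 ± 0.0523 against 0.0885 ± 0.0905 CPM. Prosc, a pyridoxal phosphate-binding protein, rose by a log2 difference of 0.32 (adjusted p = 0.0293) beside Proscos at 0.59 (adjusted p = 0.264). Gm21685, the current Entpd4b, fell by 0.39 on the log2 scale (adjusted p = 0.0462) beside Gm27177 at -1.28 (adjusted p = 0.229); it has a near-identical copy, so its counts are uncertain. Casc1 fell (1.82 ± 0.671 against 4.01 ± 0.281 CPM, log2 difference -1.14, adjusted p = 0.0478), and Gm15543 in it, at 14.6 ± 2.76 against 21.5 ± 2.52 CPM, did not pass (log2 difference -0.56, adjusted p = 0.0847, and 0.0124 without KO heart 1). Gm15543 and Casc1 share no exon base, and per kilobase Gm15543 was at 49.99 CPM and Casc1 at 0.239 CPM. Map4k2 passed whichever heart was left out. Leaving out KO heart 2 or any 1 control ended the call of Casc1 (adjusted p = 0.114 to 0.166), and leaving out any heart but KO heart 1 ended those of Popdc3 (0.0658 to 0.111), Prosc (0.0879 to 0.173) and Gm21685 (0.114 to 0.213).

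**Figure D4:**
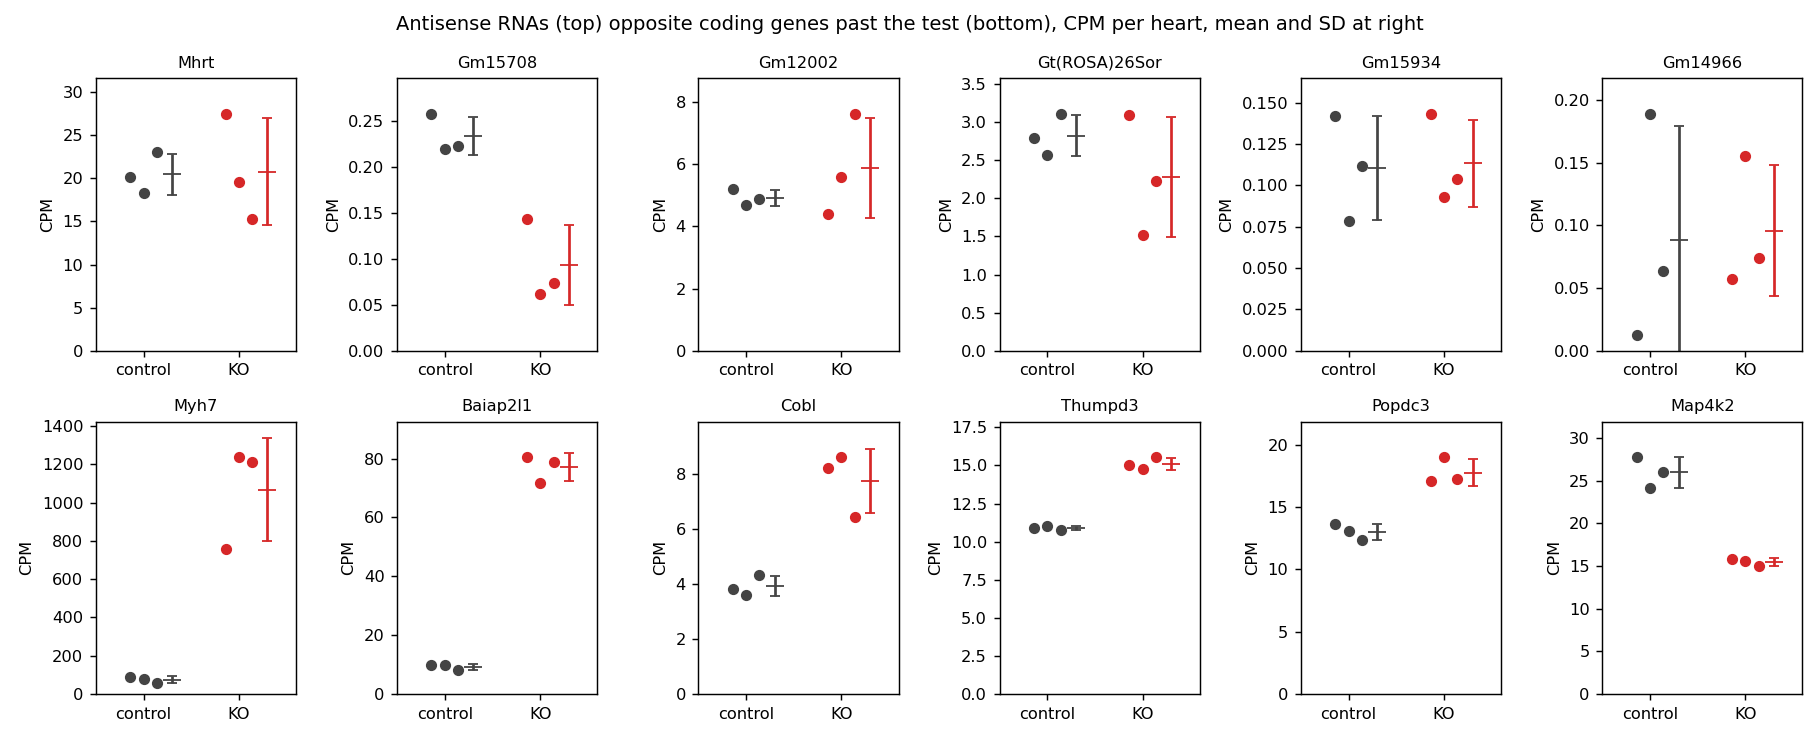
CPM in each heart for 6 antisense genes (top) whose coding partner passed the test (bottom), controls in grey and KO in red, with mean and SD at the right of each group; axes start at 0, so an SD reaching below 0 is not drawn in full. The groups overlap in every top panel but that of Gm15708 and in none of the bottom panels.

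The most abundant antisense RNA was C130080G10Rik, with its start 787 bases from that of Actc1, the cardiac alpha actin, on the other strand. It was at 89.2, 75.6 and 83.9 CPM in KO and 77.9, 82.0 and 77.6 CPM in control hearts, with overlapping groups (log2 difference 0.07, edgeR adjusted p = 0.719). Atcayos, opposite Atcay, the neuronal protein caytaxin, and Nmrk2, the muscle nicotinamide riboside kinase, was at 41.4, 25.9 and 27.9 CPM in KO and 37.6, 39.1 and 42.1 CPM in control hearts (log2 difference -0.32, adjusted p = 0.341). Nmrk2 was at 3.50, 10.5 and 15.6 CPM in KO and 2.64, 2.17 and 2.61 CPM in control hearts (log2 difference 1.99, SE 0.48, adjusted p = 0.0569). KO heart 1 was the closest to the controls for both genes, and without it the adjusted p was 0.00206 for Atcayos and 6.3e-05 for Nmrk2. Atcay had a log2 difference of -1.04 (adjusted p = 0.0588, and 0.00487 without KO heart 1). Gm29084 was at 22.8, 9.67 and 21.3 CPM in KO and 30.2, 26.5 and 30.2 CPM in control hearts, and inside Pard3b, a cell polarity gene, it exceeded its host per kilobase (16.2 against 0.729 CPM). Neither Gm29084 nor Pard3b passed (log2 differences -0.69 and -0.30, adjusted p = 0.217 and 0.375). For 5430417L22Rik, antisense by the deposited biotype and now called Inafm2 in the annotation, the log2 difference was -0.26 (adjusted p = 0.214). No coding gene overlapped it on the other strand, among the rows or in GENCODE M21. Its current biotype was not looked up, so it may not be an antisense RNA.

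Other antisense RNAs with names of their own did not pass the edgeR test. Brip1os, opposite the Integrator subunit gene Ints2 and the Mediator subunit gene Med13, was at 12.4 ± 0.705 against 11.8 ± 0.542 CPM (log2 difference 0.07, adjusted p = 0.716; Ints2 0.51 and Med13 0.08). Airn, the imprinted RNA opposite the start of Igf2r, was at 2.24 ± 0.436 against 2.78 ± 0.246 CPM (log2 difference -0.31, adjusted p = 0.366), with Igf2r at 0.47 (adjusted p = 0.19). Plet1os varied widely among the KO hearts, at 7.72, 0.186 and 3.31 CPM against 6.33, 5.08 and 5.90 CPM in controls. Toporsos, antisense by the deposited biotype, is now called Smim27 in the annotation and had a log2 difference of -0.20. The current biotype of Toporsos was not looked up either. Log2 differences were -0.28 for Sp3os, -0.36 for Rab10os, 0.09 for Map2k3os and -0.09 for Zeb2os. The sign of Map2k3os and Zeb2os turned under some settings.

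A few further members were taken up after their values were seen, for their known role or size. Kcnq1ot1, the imprinted RNA within the potassium channel gene Kcnq1, was at 0.694 ± 0.0607 against 0.850 ± 0.0786 CPM (log2 difference -0.29, edgeR adjusted p = 0.429). Dnm3os, which carries Mir199a-2 and Mir214, was at 0.334 ± 0.0776 against 0.374 ± 0.0636 CPM, and F630028O10Rik, which carries Mir223, at 0.370 ± 0.0746 against 0.345 ± 0.123 CPM. Gm21747, the host transcript of Mir133a-1 within Mib1, was at 0.716, 0.822 and 0.490 CPM in KO and 1.34, 1.16 and 1.18 CPM in control hearts, apart but not past the test (log2 difference -0.86, adjusted p = 0.0732). At least 2-fold differences were fitted for 12 of the 105 tested antisense genes, against 445 of all 12686 tested genes, without matching for level. Of 7 antisense genes that differed at least 2-fold without passing, 2 were higher and 5 lower in KO. The higher were 4933427J07Rik (log2 difference 2.65, adjusted p = 0.0732) and 2310040G07Rik (1.52, adjusted p = 0.0672), and the lower included Gm15708 and Gm27177, described above, Gm10501 (-1.24, adjusted p = 0.103) and Phtf1os (-1.15, adjusted p = 0.173). In the authors' deposited comparison, 14 of the 115 antisense rows had an adjusted p below 0.05, 4 higher and 10 lower. Over the whole table it was 825 of 12824 rows. The antisense share was thus above that of the whole table there, unlike in the main edgeR test used here.

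Genes that edit, bind, cut or degrade double-stranded or nuclear non-coding RNA passed about as often as the table as a whole. Of 39 listed, all were tested, 2 rose and 1 fell (7.69%, against 6.03% of all tested genes), the groups did not overlap for 11 (28.2%, against 27.2%), and the median log2 difference was -0.05, against -0.0032 for all tested genes. Eif2ak2, the kinase PKR that is activated by double-stranded RNA, rose (13.2 ± 1.25 against 7.29 ± 0.275 CPM, log2 difference 0.86, edgeR adjusted p = 0.00269). Stau2, a double-stranded RNA-binding transport protein, rose (51.2 ± 0.235 against 39.8 ± 2.22 CPM, log2 difference 0.36, adjusted p = 0.0293). Drosha, the nuclease that releases microRNA hairpins, fell (32.1 ± 1.10 against 41.8 ± 2.03 CPM, log2 difference -0.38, adjusted p = 0.0262). Eif2ak2 passed whichever heart was left out, while Stau2 (adjusted p = 0.0908 to 0.130) and Drosha (0.067 to 0.163) passed without KO heart 1 but not without any other heart.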

How the data were processed

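Poly(A)-selected RNA of 6 whole hearts was sequenced, 1 heart per library and 3 per group, per the labels' protocols. Per the submitters' processing notes, RSEM 1.17, cutadapt, Picard and edgeR were used with build GRCm38; which aligner, annotation release and strand setting is not given in the sources used here. Values were deposited as whole numbers, read here as RSEM's estimated counts after rounding by the authors. The table also holds, per the file headers, a normalized signal for each library with group means, and the authors' comparison as a log2 fold change, a signed fold score, a p-value and an adjusted p-value. Of these only the comparison is quoted.

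Counts were tested in R 4.3.3 with edgeR 4.0.16 (low-count filter by group, TMM, robust quasi-likelihood F test of genotype, 6 libraries, no covariate). The filter removed 138 genes and left 12686; p was adjusted by Benjamini-Hochberg over all of them, with a threshold of 0.05. Variation between hearts beyond counting had a common coefficient of 13.6%. The steps were tested on simulated data with the same dispersion for every gene, in which only better-counted genes were given a change. Recovery of changes in genes as weakly expressed as H3f3aos and Frmd8os was thus not tested. Position, strand and overlap came from the deposited table. Exons and coding bases came from GENCODE M21 (GRCm38), which has 113 of the 115 antisense rows and names 16 that the table leaves unnamed. Promoter windows came from RefSeq (GRCm38.p6), which has them for 60. Pair ratios used a pseudocount of 0.1 CPM and an exact two-sided permutation test.

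The members and lists were chosen with earlier results of these data known. Named genes were Srsf4, the antisense genes past the test and their partners, the 6 most abundant antisense genes with partners, the 12 most abundant with a name of their own, the 6 antisense genes that did not pass whose partner had the smallest p, and the listed genes for RNA handling past the test. Alternatives were DESeq2 1.42.0, voom of limma 3.58.1 with quality weights, RLE and total-count scaling, the authors' scaling factors (chosen after seeing the data), no filter, CPM of at least 1 in 3 libraries, longer overlaps, a replicate block, an adjusted p of 0.01 and leaving out each heart.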

Additional observations from a re-analysis of the deposited data

How the results depend on the processing

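The number of genes passing depended on the test and on single hearts. With DESeq2, 1455 genes (11.4% of all with an adjusted p), 12 antisense genes, 19 partners and both genes of 4 pairs passed. The numbers with voom and quality weights were 3538 (27.9% of all), 35 (9 higher, 26 lower), 42 and 19. Total-count scaling gave 1163 (9.17% of all), 11 (2 higher, 9 lower), 17 and 5. At an adjusted p of 0.01, 291 of 12686 genes, 3 antisense genes and 5 partners passed. Total-count scaling moved the share of higher genes among all that passed from 54.5% to 23.6%. Leaving out each heart in edgeR gave 288 to 2896 genes (2.27% to 22.8% of all), 2 to 27 antisense genes, 4 to 33 partners and 0 to 9 pairs. In these fits 5 to 26 pairs had both genes at an unadjusted p below 0.05. The highest counts came without KO heart 1. Same-numbered hearts had correlations of -0.06, 0.15 and -0.26 between their deviations, so no pairing by number was evident. With 3 hearts per group these values cannot exclude a pairing. With the number as a replicate block 505 genes (3.98% of all), 6 antisense genes and 5 partners passed.

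Among 42 named genes, 18 passed the main test, and 6 of these passed under all 14 other settings. H3f3aos and Frmd8os passed under the 13 in which they were fitted and were removed when 3 libraries had to reach 1 CPM. Under that filter 4 antisense genes passed (2 higher, 2 lower), when 6.1% of all tested genes did. Of the values of the 42 genes under other settings, 497 kept direction and side of the threshold, 46 no longer passed, 31 newly passed and 11 turned in sign. The turned log2 differences were those of C130080G10Rik, Brip1os and Map2k3os with total counts (-0.073, -0.070 and -0.043), Map2k3os with voom (-0.016), and D830015G02Rik (Mhrt) with the replicate block (-0.013), total counts (-0.12) and voom (-0.20). Leaving out single hearts moved D830015G02Rik from -0.23 to 0.20, Map2k3os from -0.088 to 0.20 and Zeb2os from -0.23 to 0.17. The cause was not tested. At these depths differences in antisense genes near 0.05 CPM rest on a few counts.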
